A study of Homo sapiens with 6 samples.

Results

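The keratin and desmosome genes of PaTu8988t cells, an established human PDAC cell line, were examined for their response to the loss of SAMD1. Members were chosen by gene symbol alone, as every *KRT* gene with a number and at most 1 letter after it, plus the desmogleins, the desmocollins, *DSP*, *JUP*, the plakophilins, *PPL* and *EVPL*. This gave 70 of the 20347 genes in the table, 55 keratins and 15 desmosome genes. RNA-seq libraries were available for 3 Control replicates and for 3 SAMD1 KO samples, and no other group was used. The SAMD1 KO cells were made with CRISPR/Cas9 from a lentiviral vector that also confers puromycin resistance, and each KO sample is a separate single-cell clone. The Control cells carried the same kind of vector with an unspecific guide RNA, and nothing in the sources used here says that they were clones. All cells grew in high-glucose DMEM with 5% fetal bovine serum and penicillin-streptomycin, and puromycin was used to select single clones. Nothing states that the Control replicates came from separate cultures, so p-values compare the spread between these 6 samples, which for Control may be technical.

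Keratins are the intermediate filament proteins of epithelial cells. A filament always pairs a type I keratin, which is acidic, with a type II keratin, which is basic to neutral, and simple epithelia such as the pancreatic duct are known for the pair KRT8 and KRT18, joined by KRT7 and KRT19. Desmosomes are the junctions that tie these filaments to the cell border. Their desmogleins and desmocollins are cadherins that bind the neighbouring cell, the armadillo proteins plakoglobin (*JUP*) and the plakophilins sit on the cadherin tails, and the plakin desmoplakin (*DSP*) holds the filaments. The comparison with SAMD1 KO bears on this system because SAMD1 is a repressor that binds unmethylated CpG islands, and the study asked which genes it controls in PDAC cells and whether these belong to the epithelial-mesenchymal transition, in which cells lose epithelial junctions.

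*SAMD1* itself was measured at 2231, 2382 and 2299 normalized counts in Control and at 874.1, 1082 and 824.8 in the KO clones, a log2 fold change of -1.32 (SE 0.10, limma adjusted p = 0.000724), so all 3 clones lay below all 3 Control replicates. Normalized counts are reads scaled by the size factor of their library. Library totals ran from 35589477 to 45172216 reads, at which 3 reads correspond to 2.59 to 3.44 normalized counts, taken here as the floor. Of the ductal epithelial markers, 6 passed the filter on low counts and *KRT19* was listed at 0 in all 6 libraries. The summed ductal level of 63582 to 66793 in Control and 68902 to 110418 in KO consists almost wholly of *KRT8* and *KRT18*. *SOX9*, a ductal transcription factor, was at 728.9 ± 32.6 in Control and 1727 ± 726 in KO (SD, n = 3) and was called higher by the rule given below. The 4 acinar and 3 endocrine markers were at 0 throughout. The 6 fibroblast markers summed to 163.8 to 166.3 in Control and 148.4 to 443.2 in KO with *DCN* and *LUM* at 0, the 4 leukocyte markers to 356.2 to 375.7 and 246.2 to 328.3 with *CD3E* at 0, and the 3 endothelial markers to 77.8 to 84.8 and 33.6 to 83.6. All samples were cultures of an established cell line, so these sums are levels of marker genes and were not read as other cell types. In bulk RNA fewer cells that express a gene and less of its RNA per cell cannot be told apart.

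Of the 70 members, 17 had a mean of at least 10 normalized counts and were tested. To be called, a gene had to differ by more than 0.5 on the log2 scale with a limma p under 0.01 before adjustment, and adjusted p-values were taken over all 12773 tested genes. Called higher in SAMD1 KO were 3 members, *KRT7*, *DSC2* and *KRT18*, beside 5.77% of all tested genes called higher. Called lower were 2 members, *DSC3* and *PKP2*, beside 2.08% of all tested genes. The median log2 fold change of the 17 tested members was 0.05, against -0.01 over all tested genes, with 10 members above 0 and 7 below. The 3 Control and 3 KO values did not overlap for 9 of the 17 tested members, beside 37.8% of all tested genes.

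**Figure D1:**
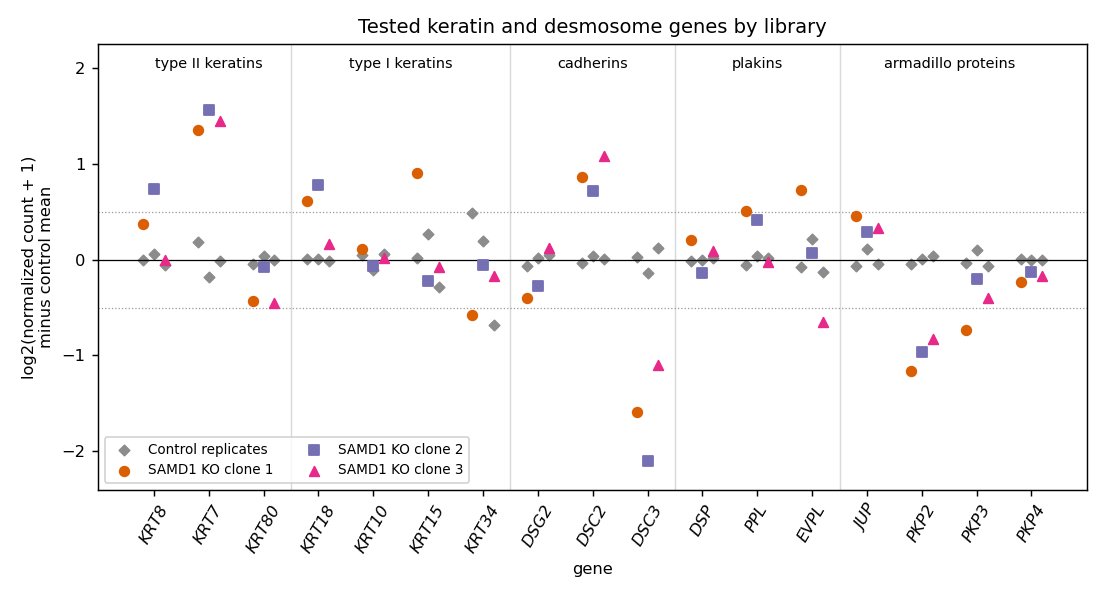
Each point is the log2(normalized count + 1) of a library minus the Control mean, for the 17 tested members grouped by protein class along the horizontal axis, with Control replicates in grey and each SAMD1 KO clone in its own colour. Dotted lines mark a difference of 0.5, and the clones of *KRT7*, *DSC2*, *DSC3* and *PKP2* all lie beyond them while those of *KRT8*, *KRT15* and *EVPL* lie on both sides of the Control mean.

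Among the desmosomal cadherins, the desmocollins *DSC2* and *DSC3* moved in opposite directions. These 2 genes stand next to each other on chromosome 18 (hg38), *DSC3* at chr18:30989365-31042815 and *DSC2* at chr18:31058840-31102522, both on the minus strand and 16024 bases apart. *DSG2* lies 395654 bases beyond *DSC2*, at chr18:31498177-31549008 on the plus strand. Since SAMD1 binds CpG islands and its DNA-binding domain is known to read the motif GCGC, the 250 bases before the RefSeq start of these 3 genes (GRCh38.p14) are shown 5′ to 3′ on the strand of the gene, with GCGC in capitals. The windows are chr18:31042743-31042992 for *DSC3*, chr18:31102422-31102671 for *DSC2* and chr18:31497927-31498176 for *DSG2*.
DSC3: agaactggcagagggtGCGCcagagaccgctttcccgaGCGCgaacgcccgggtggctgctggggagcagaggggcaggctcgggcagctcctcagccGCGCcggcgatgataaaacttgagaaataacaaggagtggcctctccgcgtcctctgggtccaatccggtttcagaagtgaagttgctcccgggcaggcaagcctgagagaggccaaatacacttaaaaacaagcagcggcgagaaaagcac
DSC2: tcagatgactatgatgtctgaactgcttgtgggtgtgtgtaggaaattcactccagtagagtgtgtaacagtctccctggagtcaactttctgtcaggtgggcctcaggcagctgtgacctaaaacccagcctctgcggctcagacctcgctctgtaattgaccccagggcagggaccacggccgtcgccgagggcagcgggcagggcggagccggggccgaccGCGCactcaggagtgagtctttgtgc
DSG2: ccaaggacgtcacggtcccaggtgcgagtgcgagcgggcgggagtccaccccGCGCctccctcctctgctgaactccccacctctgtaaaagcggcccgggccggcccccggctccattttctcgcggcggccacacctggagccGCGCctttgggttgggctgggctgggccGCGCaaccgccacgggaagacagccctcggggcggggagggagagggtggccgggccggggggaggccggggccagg
The *DSC3* window holds 3 GCGC, 18 CpG and 60.4% G and C. The *DSC2* window holds 1 GCGC, 12 CpG and 59.6% G and C, and the *DSG2* window 3 GCGC, 26 CpG and 75.2%. GCGC reads the same on both strands and was counted with overlaps allowed.

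*DSC3*, the desmocollin of basal layers in stratified epithelia, was measured at 445.0, 397.2 and 475.4 normalized counts in Control and at 145.4, 101.1 and 203.3 in the KO clones. Every clone lay below every Control replicate, and the lowest was clone 2. *DSC3* fell from 439.2 ± 39.4 to 149.9 ± 51.2 (SD, n = 3), to 34.1% of Control, a log2 fold change of -1.60 (SE 0.24, limma adjusted p = 0.00695). *DSC2*, the desmocollin found in most epithelia, was measured at 666.9, 700.5 and 685.0 in Control and at 1246, 1127 and 1447 in the KO clones. Here every clone lay above every Control replicate, and clone 3 was the highest. *DSC2* rose from 684.1 ± 16.9 to 1273 ± 162 (SD, n = 3), 1.86 times the Control mean and a log2 fold change of 0.89 (SE 0.10, limma adjusted p = 0.00249). Both calls held when any 1 of the 6 libraries was left out.

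Per kilobase of the canonical transcript the desmocollins stood at similar levels in Control, *DSC3* at 57.9 and *DSC2* at 55.5 normalized counts per kb. In SAMD1 KO they stood at 19.8 and 103.3. These levels rest on lengths of 7583 bases for *DSC3* and 12331 for *DSC2*, and which transcripts the cells used was not measured. The ratio of *DSC2* to *DSC3* per kb was 0.92, 1.08 and 0.89 for Control and 5.27, 6.85 and 4.38 for the KO clones. This ratio was formed after the values were seen and was not tested. Summed over the 3 desmocollin genes, the level was 113.7 ± 4.4 per kb in Control and 123.5 ± 20.2 in KO (SD, n = 3), ranges that overlapped, with 104.7 in clone 2 and 144.8 in clone 3.

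*DSG2*, the desmoglein of simple epithelia, was the most abundant desmosomal cadherin at 2282 normalized counts per kb in Control. Its normalized counts were 12429, 13121 and 13447 in Control and 9816, 10772 and 14088 in KO, so that clone 3 lay above Control and the other clones below. The log2 fold change was -0.19 (SE 0.13, limma adjusted p = 0.364). *DSG1*, *DSG3*, *DSG4* and *DSC1*, cadherins of stratified epithelium and hair, had at most 3 reads in any library and were not tested.

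The genes around the desmosomal cadherins were also compared clone by clone. The median log2 difference of the 40 tested genes neighbouring *DSC2* was 0.10, 0.16 and 0.25 in clones 1 to 3. With this regional median subtracted, the log2 fold change was 0.72 for *DSC2*, -1.78 for *DSC3* and -0.41 for *DSG2*, and the first 2 were still called. *DSG2* then had a limma adjusted p of 0.0201 but was under the fold cut-off. Among the tested genes of this stretch of chromosome 18, *CDH2*, which encodes N-cadherin, lies at -3047.1 kb from the end of *DSC2*. Its log2 fold change was 1.96 and it was called higher. *RNF125* at 943.5 kb (0.80) and *GAREM1* at 1195.4 kb (0.66) were also called higher. *B4GALT6* (0.49), *KLHL14* (0.73), *TRAPPC8* (0.09) and *RNF138* (-0.23) were not called.

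**Figure D2:**
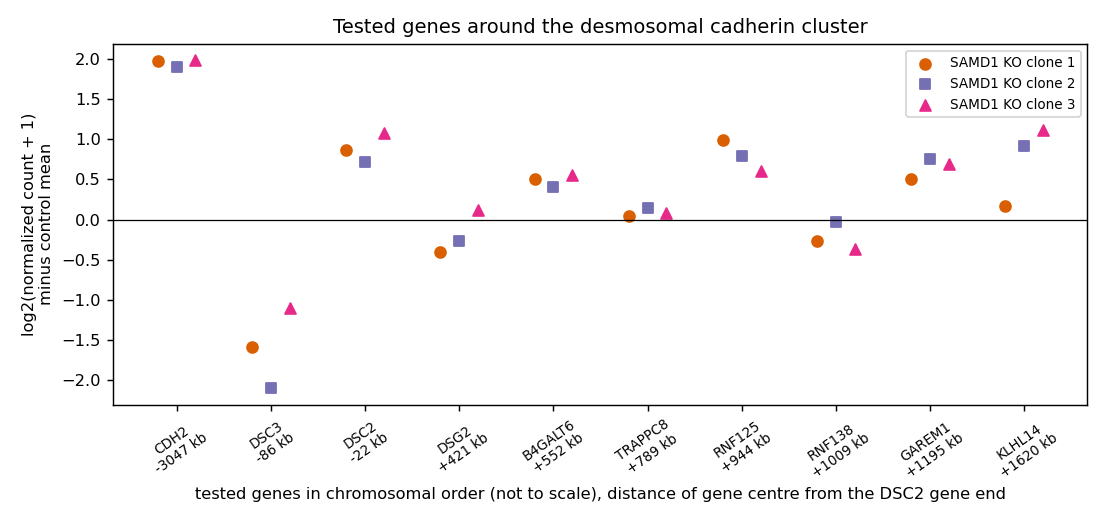
The log2(normalized count + 1) of each SAMD1 KO clone minus the Control mean is plotted for tested genes in chromosomal order (not to scale), with the distance of each gene centre from the end of *DSC2* in kb under its name. All 3 clones lie far below 0 for *DSC3*, while all 3 lie above it for the adjacent *DSC2*, between 0.72 and 1.08.

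Of the armadillo proteins, *PKP2* carried the only call. Plakophilin 2 (chr12:32790745-32896798, minus strand) is the plakophilin of simple epithelia and heart. Its normalized counts were 4944, 5103 and 5243 in Control and 2280, 2606 and 2873 in the KO clones. The clones lay together, well below the Control replicates. *PKP2* fell from 5097 ± 150 to 2586 ± 297 (SD, n = 3), to 50.7% of Control, a log2 fold change of -0.98 (SE 0.09, limma adjusted p = 0.00098), and was called whichever library was left out.

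*PKP3*, a plakophilin that most epithelia contain, was measured at 1174, 1287 and 1143 in Control and at 718.9, 1042 and 906.7 in KO. The groups did not overlap, but the log2 fold change of -0.45 (SE 0.13, limma adjusted p = 0.0714) was not called. *PKP3* was called without KO clone 2, at -0.57, and with the regional median subtracted, at -0.59. *PKP4*, the related protein p0071 found in adherens junctions as well as desmosomes, had 9978, 9860 and 9929 normalized counts in Control and 8426, 9061 and 8802 in KO, again without overlap, with a log2 fold change of -0.18 (SE 0.05, limma adjusted p = 0.0537). With the regional median subtracted, *PKP4* was at -0.36 (limma adjusted p = 0.00343), under the fold cut-off. *PKP1*, the plakophilin of suprabasal skin, had 0 reads in all libraries. The 4 plakophilins together stood at 3787 ± 29.3 normalized counts per kb in Control and 2831 ± 180 in KO (SD, n = 3). *PKP4* was 1.79 times *PKP2* per kb in Control and 3.13 times in KO, a ratio formed after the values were seen and not tested.

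*JUP*, which encodes plakoglobin, a protein shared by desmosomes and adherens junctions, had 935.7, 1058 and 953.0 normalized counts in Control and 1348, 1201 and 1231 in KO. All clones lay above Control. Its log2 fold change of 0.36 (SE 0.08, limma adjusted p = 0.0283) was under the fold cut-off, and its adjusted p stayed under 0.05 for 3 of the 6 libraries left out in turn.

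None of the 3 plakins was called by limma, edgeR or DESeq2, and 0 had an unadjusted limma p below 0.05, beside 16.1% of all tested genes higher and 13.5% lower at that p. *DSP*, desmoplakin, had 10917, 11017 and 11211 normalized counts in Control and 12731, 10049 and 11754 in KO, so that the clones lay on both sides of the Control values (log2 fold change 0.05, SE 0.09, limma adjusted p = 0.726). *PPL*, periplakin, was at 2228 to 2377 in Control and at 3287, 3076 and 2277 in KO, with a log2 fold change of 0.30 (SE 0.13, limma adjusted p = 0.180). *EVPL*, envoplakin, the partner of periplakin in the cornified envelope, had 783.5, 960.8 and 757.2 in Control and 1374, 868.3 and 527.1 in KO. Clone 1 was thus the highest and clone 3 the lowest of the 6 libraries for *EVPL*, and the log2 fold change of 0.05 (SE 0.31) turned to -0.29 without clone 1.

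Over the 15 desmosome genes, 10 were tested, with 1 called higher and 2 called lower, beside 5.77% and 2.08% of all tested genes, and a median log2 fold change of -0.07. The groups did not overlap for 6 of the 10, beside 37.8% of all tested genes. Of the 10 tested genes, 5 had a log2 fold change above 0 and 5 below. The 15 desmosome genes summed to 8102 ± 158 normalized counts per kb in Control and 7133 ± 353 in KO (SD, n = 3). Most of this difference lay in the plakophilins, at 3787 ± 29.3 per kb in Control and 2831 ± 180 in KO. The sum over all 15 genes was lower in 3 of 3 clones. On the log2 scale the sum differed by -0.18 (exact permutation test, two-sided, p = 0.1, the smallest that 3 against 3 libraries allows, 0.18 after Benjamini-Hochberg adjustment over the 9 sums and shares tested this way).

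Of the type II keratins, *KRT7* was called higher. *KRT7*, a marker of ductal and other glandular epithelia (chr12:52232520-52252186, plus strand), was expressed at a low level, with 34.3, 26.4 and 29.8 normalized counts in Control and 78.1, 90.7 and 83.6 in the KO clones. Control and KO were clearly apart and each group was narrow. *KRT7* rose from 30.2 ± 4.0 to 84.2 ± 6.3 (SD, n = 3), 2.79 times the Control mean and a log2 fold change of 1.46 (SE 0.19, limma adjusted p = 0.00392), and was called in 6 of the 6 fits that left out a library. Of its exon bases, 7.85% are shared with genes on the other strand, and the strand setting of the read counting is not given in the sources used here.

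*KRT8*, the type II partner in the simple epithelial pair (chr12:52897187-52949954, minus strand), had 34096, 35575 and 32903 normalized counts in Control and 44228, 57041 and 34021 in KO. Clones 1 and 2 lay above Control, and clone 3 lay within it. The mean was 34191 ± 1339 in Control and 45097 ± 11535 in KO (SD, n = 3), with a log2 fold change of 0.37 (SE 0.17, limma adjusted p = 0.195) that was called only without clone 3, at 0.56. *KRT18*, the type I partner (chr12:52948871-52952906, plus strand), had 29771, 29730 and 29200 in Control and 45210, 50795 and 33001 in KO. For *KRT18* all clones lay above Control, clone 3 by the least. *KRT18* rose from 29567 ± 318 to 43002 ± 9100 (SD, n = 3), 1.45 times the Control mean and a log2 fold change of 0.52 (SE 0.15, unadjusted p = 0.00881, limma adjusted p = 0.0598). The *KRT18* value sat just past the fold cut-off, and the call was lost in 5 of the 6 fits that left out a library (all but the one without clone 3, at 0.70) and with the regional median subtracted (0.48). The 2 genes overlap at their ends on opposite strands, with 7.63% of the exon bases of *KRT8* and 17.1% of those of *KRT18* shared, and both have many processed pseudogenes, so reads could be split between copies.

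**Figure D3:**
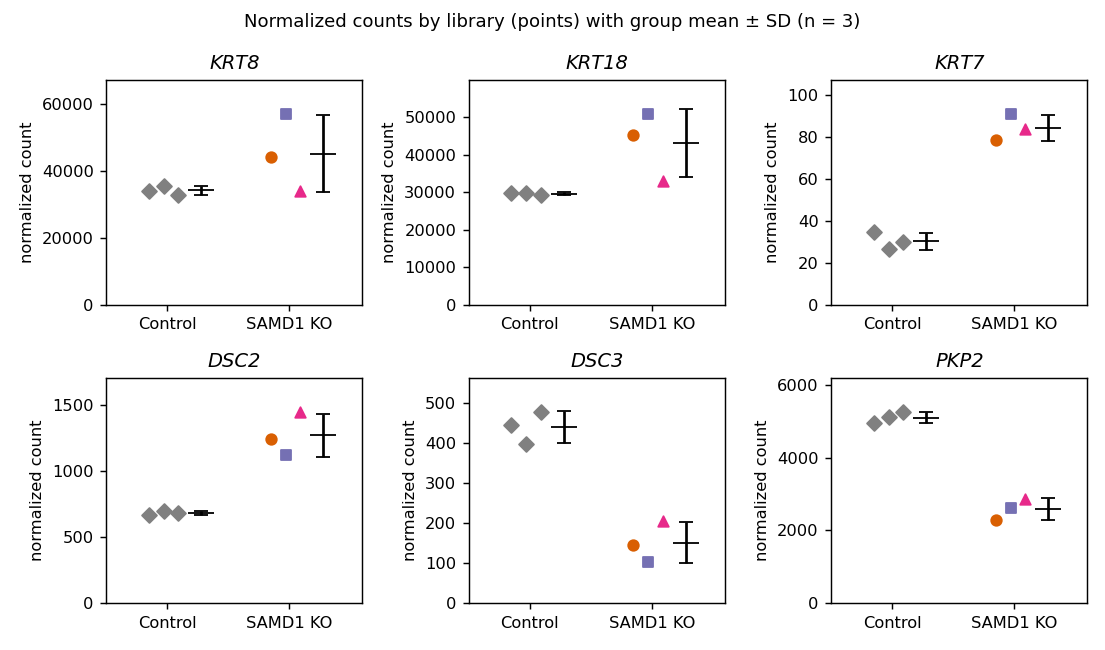
Normalized counts per library for the members *KRT8*, *KRT18*, *KRT7*, *DSC2*, *DSC3* and *PKP2*, each panel from 0, with points for libraries and the bar for the group mean ± SD (n = 3). Control replicates lie close together for *KRT8* and *KRT18* while the 3 KO clones spread from 34021 to 57041 and from 33001 to 50795.

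*KRT80*, a type II keratin found near desmosomes and in the filament network of many epithelia, had 4014, 4259 and 4139 normalized counts in Control and 3060, 3929 and 3018 in KO. The groups did not overlap, though clone 2 lay close to Control, and the log2 fold change of -0.32 (SE 0.10, limma adjusted p = 0.0868) was not called. Among type I keratins, *KRT10*, known from suprabasal epidermis, stood at 2086 ± 127 and 2119 ± 133 (SD, n = 3), with a log2 fold change of 0.02 (SE 0.07, limma adjusted p = 0.866). *KRT15*, a basal keratin of stratified epithelia, had 48.0, 57.7 and 38.9 in Control and 90.0, 40.6 and 44.97 in KO, so that clone 1 alone lay above Control. Its log2 fold change was 0.20 (SE 0.33, limma adjusted p = 0.728). *KRT34*, a hair keratin, was near the limit of the filter at 16.2 ± 6.4 and 12.7 ± 2.5, with a log2 fold change of -0.27 (SE 0.38, limma adjusted p = 0.684).

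Keratin levels were next set against each other per kilobase. *KRT8* and *KRT18* together made up 94.8% to 97.1% of the keratin mRNA of a library. *KRT19* entered this pool, and the type I sum below, at its listed 0. The keratin sum was 42197 ± 906 normalized counts per kb in Control and 57665 ± 12873 in KO (SD, n = 3), with 58744, 69965 and 44286 in clones 1 to 3, so clone 3 lay near the highest Control value of 43053. Within this pool the share of *KRT18* was 49.6% ± 0.64 in Control and 52.9% ± 1.55 in KO (SD, n = 3), higher in 3 of 3 clones (exact permutation test, two-sided, p = 0.1, adjusted 0.18). *KRT80* held 2.53% ± 0.07 in Control and 1.52% ± 0.22 in KO, lower in 3 of 3 clones (exact p = 0.1, adjusted 0.18). *KRT8* held 45.4% and 43.7% (exact p = 0.3, adjusted 0.337). *KRT10* held 2.31% and 1.78% (exact p = 0.2, adjusted 0.257). *KRT7* held 0.044% in Control and 0.0926% in KO (exact p = 0.1, adjusted 0.18).

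The balance of the keratin types followed from the main pair. The summed type I level relative to the summed type II level was 0.13, 0.06 and 0.15 on the log2 scale in Control and 0.37, 0.16 and 0.29 in KO. All clones lay above the Control range, clone 2 by little (0.160 against 0.153), and the difference of 0.16 had the smallest exact p possible, 0.1 (two-sided, adjusted 0.18). The sums themselves were 21943 ± 207 and 31471 ± 6426 normalized counts per kb for type I and 20254 ± 766 and 26194 ± 6590 for type II (SD, n = 3).

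**Figure D4:**
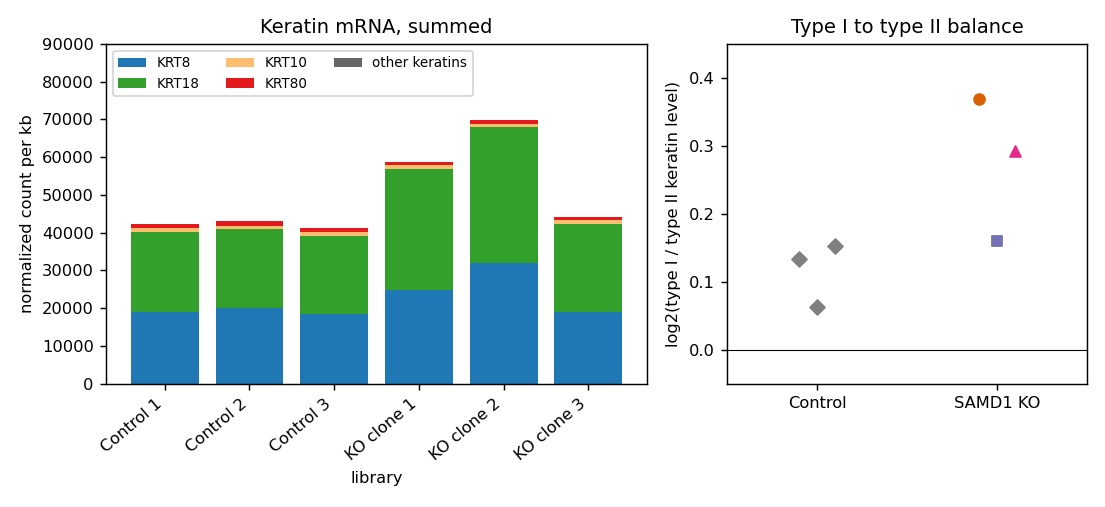
Left, stacked bars give the normalized count per kb of *KRT8*, *KRT18*, *KRT10*, *KRT80* and the remaining keratins in each of the 6 libraries, from 0. Right, points give the log2 ratio of summed type I to summed type II keratins per library, with 0.06 to 0.15 in Control and 0.16 to 0.37 in SAMD1 KO.

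The other 53 members were below the filter, of which 32 had 0 reads in every library. A further 17 had reads but at most 3 in any library, the floor used here, and 4 had more. Of those 4, *KRT16*, a keratin of stressed and wound epidermis, was the highest, with 2.29, 3.91 and 9.16 normalized counts in Control and 4.94, 10.4 and 1.80 in KO, and *KRT33B*, a hair keratin, reached 8 reads. *KRT32* and *KRT86*, also hair keratins, reached 4 reads. The basal epidermal keratins *KRT5* and *KRT14* and the wound keratin *KRT17* did not exceed 3 reads, and the intestinal keratin *KRT20* did not exceed 1. These genes were named for their known roles after their values were seen. *KRT19*, a main keratin of the pancreatic duct, was listed at 0 in all libraries, as was *EEF1G*, a translation factor gene that every cell uses. Of the exon bases of *EEF1G*, 99.7% are shared with another gene on the same strand, and of those of *KRT19* 0%. The 0 of *KRT19* is given here only as listed. Of the 26 hair and root sheath keratins, 19 had 0 reads and only *KRT34* was tested.

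RefSeq promoter windows were found for 44 members. The other 26 had none, among them the called *KRT7*, *KRT18* and *PKP2*. The *KRT8* window was left out because it lay more than 1000 bases from the start of the transcript used here. GCGC occurred in the window of 5 of the 8 tested members with an entry (62.5%) and in 1 of the 35 members below the filter (2.86%). It occurred in 53.4% of all 35116 windows. Each member has 1 window, the nearest to its transcript start, while the 35116 were not reduced to 1 per gene. The median number of CpG was 17.5 in the tested members, 2 in those below the filter and 11 over all windows. The called members among those printed above differ in direction, with *DSC3* lower and *DSC2* higher, and *DSG2* with as many GCGC as *DSC3* was not called. These counts describe letters in a window and not binding, which was not analysed here.

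The KO clones varied more among themselves than the Control replicates did, for members as for genes at large. The spread of log2 values was wider among KO clones for 14 of the 17 tested members, beside 82.8% of all tested genes, a share near the background. The median SD was 0.06 in Control and 0.27 in KO for members, and 0.06 and 0.15 over all tested genes. For *EVPL* the SD was 0.69 in KO, and for *KRT15* it was 0.61. Clones carry differences of their own beside the loss of SAMD1, which cannot be told apart here.

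A list of 58 genes that act with keratins and desmosomes was compared in the same fit, of which 33 were tested, 3 were called higher and 0 lower. Over all tested genes 5.77% were called higher and 2.08% lower. By the same limma test without the fold cut-off, 8 of the 33 were higher and 4 were lower at an unadjusted p below 0.05, beside 16.1% and 13.5% of all tested genes. Also by edgeR and DESeq2 0 were called lower, and the median log2 fold change was 0.03. Of the epithelial transcription regulators, 9 of 17 were tested and *GRHL1* was called higher. *GRHL1* is a grainyhead factor known to control desmosomal cadherin genes in epidermis. It was measured at 164.7, 135.0 and 116.8 normalized counts in Control and 312.5, 485.5 and 435.3 in KO, all clones above Control. *GRHL1* rose from 138.9 ± 24.2 to 411.1 ± 89.0 (SD, n = 3), a log2 fold change of 1.55 (SE 0.20, limma adjusted p = 0.0041), and was called whichever library was left out.

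Of 16 cytolinkers and filament partners, 14 were tested and *SYNM* was called higher. *SYNM* encodes synemin, an intermediate filament protein that joins with vimentin and desmin. Its normalized counts were 757.2, 730.9 and 715.9 in Control and 1864, 1225 and 1010 in KO, with clone 1 highest, and it rose by 0.85 on the log2 scale (SE 0.20, limma adjusted p = 0.0363). This call was lost without any 1 of the Control replicates. Vimentin (*VIM*), the filament protein of mesenchymal cells, stood at 38993 ± 830 and 53704 ± 12466 (SD, n = 3), with a log2 fold change of 0.44 (SE 0.15, limma adjusted p = 0.0938), not called. Plectin (*PLEC*), which links filaments to other parts of the cytoskeleton, had a log2 fold change of 0.03 (SE 0.18).

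Of 18 cornified envelope and keratinization genes, 4 were tested and *CNFN*, which encodes cornifelin, a cornified envelope protein, was called higher. Its counts were low, at 26.3, 42.1 and 30.9 in Control and 54.4, 61.3 and 73.8 in KO, all clones above Control. *CNFN* rose by 0.93 on the log2 scale (SE 0.24, limma adjusted p = 0.0455), and the call was lost in 4 of the 6 fits that left out a library. Of the 7 kinases and regulators of filaments and junctions, 6 were tested and none was called by limma, edgeR or DESeq2, with 1 higher and 1 lower at an unadjusted limma p below 0.05, near the shares of all tested genes (16.1% and 13.5%). The keratinocyte 14-3-3 protein *SFN*, which binds keratins, had the smallest p of these, with a log2 fold change of -0.34 (SE 0.09, limma adjusted p = 0.043) that was under the fold cut-off.

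**Figure D5:**
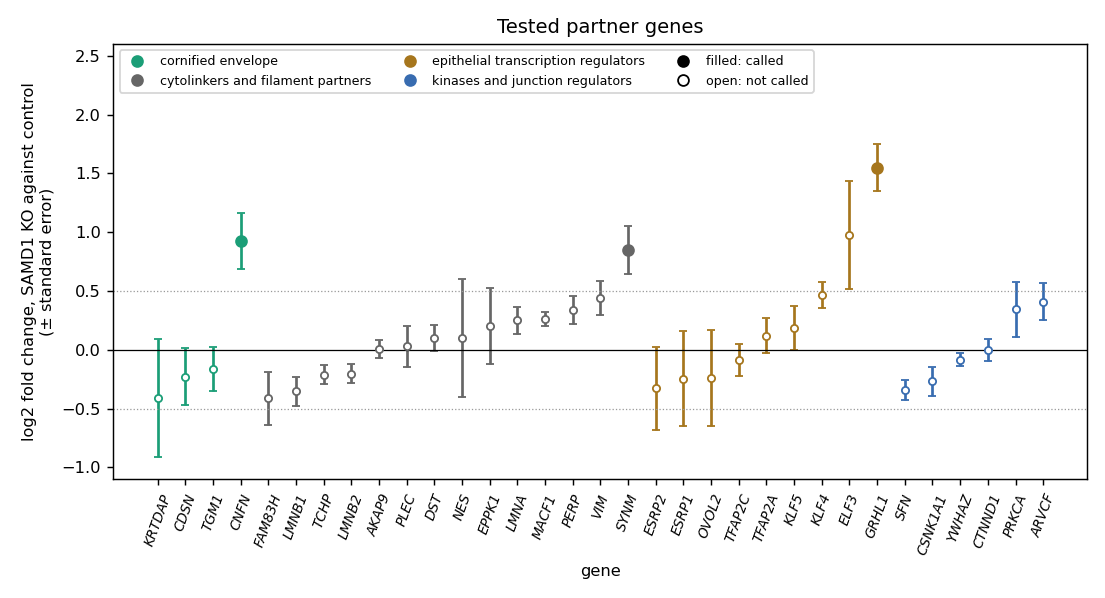
Log2 fold changes of SAMD1 KO against Control for the 33 tested partner genes, with bars for ± 1 standard error, colours for the 4 lists and filled points for called genes. Dotted lines mark ± 0.5, and the filled points are *CNFN* at 0.93, *SYNM* at 0.85 and *GRHL1* at 1.55.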

How the data were processed

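Total RNA of 3 Control and 3 SAMD1 KO samples was sequenced from stranded mRNA libraries. The authors aligned the reads with RNA-STAR and counted them per gene. The submitters' processing notes name featureCounts, DESeq2 and the build hg38. The deposited signal is a normalized count, for which the authors scaled each library's reads by its DESeq2 size factor. A further table with the authors' own comparison (mean, log2 fold change, standard error, statistic and p-values) was not used.

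All values of a library (100%) were multiples of 1 step (within 0.1 read), so reads were recovered by dividing by it. For KO clone 1 the step is close to 1, so that values in reads and normalized counts nearly coincide there. Recovered totals were 35714042, 41572022 and 35589477 reads in Control and 41097091, 45172216 and 44629364 in KO. Floors cover counting error only.

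limma 3.58.1 (trend) in R 4.3.3 was fitted to log2(normalized count + 1) of all 12773 genes with a mean of at least 10 normalized counts, with no covariate. Fold changes are on that scale, which understates the change of low genes. Calls needed a log2 fold change beyond 0.5 and p below 0.01, after the cut-off of the study, with Benjamini-Hochberg adjustment across the tested genes where a p is named adjusted. Sums and shares were compared by a two-sided exact permutation test (SciPy 1.17.1). Levels between genes are normalized counts per kb of the GENCODE 44 canonical transcript, and 19546 of the 20347 symbols had a position. Alternatives were pseudocounts of 0.1 and 10, a filter at a mean of 50 or none, scaling to the 75th percentile, a replicate block, each library left out, edgeR 4.0.16 and DESeq2 1.42.0 on the reads, calls by adjusted p, and subtraction of the median of 40 neighbouring genes. The limma, edgeR and DESeq2 fits were tested on simulated data with the same spread in both groups. That test does not cover the wider spread among KO clones seen here.

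Named are all called members and partner genes, the other tested members, members below the filter with over 10 normalized counts in a library, and SAMD1. *CDH2* and the other listed neighbours on chromosome 18, *SOX9*, *VIM*, *PLEC*, *SFN* and other members below the filter were named beyond that rule, with their values already seen. Members and lists were chosen with earlier results of these data known.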

Additional observations from a re-analysis of the deposited data

How the results depend on the processing

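The number of members called higher was 3 and ranged from 2 to 4 with a library left out. It was 2 with the regional median subtracted and 2 with an adjusted p below 0.05 in place of the unadjusted one. The number called lower was 2, with 2 to 3 when a library was left out and 3 with the regional median subtracted. Pseudocounts, filters, rescaling, edgeR and DESeq2 gave 3 higher and 2 lower. Partner genes called higher were 3 and ranged from 1 to 4, with 1 without Control replicate 1 and 1 without Control replicate 3.

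Replicate numbers are shared between the groups. The deviations of samples with the same number correlated at 0.039, 0.134 and 0.032, and those with different numbers at -0.074 to 0.036. Each same-number value was the highest for its KO clone, so these values do not settle whether the numbers pair the samples. The main fit did not pair them. With the replicate number as a block, 3 members were called higher and 2 lower, and 3 partner genes higher and 0 lower.

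Directions that turned with a library left out belonged to genes that were not called. With a library left out, the log2 fold change of *KRT10* ranged from -0.029 to 0.068 (below 0 without Control replicate 2 and without KO clone 1) and that of *KRT15* from -0.15 to 0.41 (below 0 without KO clone 1). That of *DSP* ranged from -0.024 to 0.15 (below 0 without KO clone 1) and that of *EVPL* from -0.29 to 0.40 (below 0 without Control replicate 3 and without KO clone 1). The difference in the share of *KRT15* in the keratin pool, -0.0057 percentage points, ranged from -0.020 to 0.0078 with a library left out (0.00014 without Control replicate 2). The cause of these turns was not tested. No other share or sum of the keratin pool and desmosome genes changed its direction under the alternatives. With 3 libraries a group the exact tests cannot go below 0.1, low tested members such as *KRT7* and *KRT34* rest on few reads, and members at or under 3 reads could not be compared.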
